A study of Mus musculus with 18 samples.

Results

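The genes described here are 34 genes of the cell's defence against oxidants. They comprise the transcription factor NRF2 (gene Nfe2l2) with its inhibitor Keap1, the enzymes of heme and quinone detoxification, and the glutathione and thioredoxin systems. They also include the peroxiredoxins, superoxide dismutases and catalase, the ferritin subunits, and enzymes of NADPH supply and the pentose phosphate pathway. They were taken by gene symbol from a table of 21959 genes, glutathione transferases left out, and all 34 passed the filter on low counts. RNA sequencing was done on 18 libraries of MOVAS, an established mouse aortic smooth muscle cell line, in 6 groups of 3. Blank was the control group, H2O2 was given hydrogen peroxide, an oxidant, and Dox was given doxorubicin, an anthracycline that damages DNA and takes part in redox cycling. Isoliensinine, a plant alkaloid, is the sole treatment named for B_I, H_I and D_I. From their titles these were taken to be its combinations with the Blank, H2O2 and Dox conditions, in that order. Peroxide and doxorubicin served to induce senescence, per the design text, which also speaks of biological replicates. All 6 groups come from 1 cell line, and for doses, times and age of the cultures the labels give nothing.

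In resting cells KEAP1 binds NRF2 and marks it for destruction. Oxidants and electrophiles modify cysteines of KEAP1, NRF2 then accumulates without need for more of its own mRNA, pairs with small MAF proteins and binds antioxidant response elements in front of its target genes. Classical targets are Hmox1, Nqo1, Srxn1, Txnrd1, Prdx1, Gclc, Gclm, Slc7a11, Gsr, the ferritin genes and those of NADPH supply and the pentose phosphate pathway. Glutathione and thioredoxin are a pair of parallel thiol systems that reduce peroxides and oxidised proteins, and both draw their electrons from NADPH.

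Library totals ran from 12859609 to 23284077 counts, and the 3 Dox libraries were the deepest. In a principal component analysis of all genes the libraries Blank_4 and B_I_3 stood apart on the first component, which held 23.5% of the variance (-69.7 and -61.3), and calls on members that changed without them in comparisons that use them are given both ways below. Among smooth muscle markers, Acta2 (356.7 to 1738 FPKM), Tpm2 and Smtn were present in all libraries, but Tagln did not pass 0.432 FPKM and Myocd, the master regulator of the contractile programme, did not pass 0.109 FPKM and was listed at 0 in 6 libraries. A list of 12 fibroblast markers, led by the collagen genes Col1a1 and Col1a2, summed to 12382 to 15604 CPM (counts scaled to library size) in Blank, 6590 to 8325 in H2O2 and 4303 to 4640 in Dox, with Lum at 0 in 4 libraries and Dpt in 1. The part of such shifts in cell state in the results below was not tested. RNA was measured in bulk, so a change in every cell cannot be told apart from a change in the share of cells that express a gene.

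Per gene length, the ferritin heavy chain Fth1 was the most abundant of the 34 at a mean of 2751 FPKM (fragments scaled for gene length and library total) over the 18 libraries. It was followed by the light chain Ftl1 (499.6 FPKM), the lipid peroxide reductase Gpx4 (353 FPKM) and thioredoxin itself, Txn1 (230.2 FPKM). At the low end stood Gpx1, the general cytosolic glutathione peroxidase (0.631 FPKM), and Slc7a11, the cystine importer that feeds glutathione synthesis (0.493 FPKM). The 4 peroxidases Prdx4, Prdx2, Prdx5 and Prdx1 lay between 130.1 and 193 FPKM, above the 44.9 FPKM of mitochondrial Prdx3 and the 8.82 FPKM of catalase (Cat). The FPKM values of Gpx1 rested on few reads and its changes are therefore wide in error.

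Against Blank, doxorubicin changed many of these genes and hydrogen peroxide few. With peroxide, 2 of the 34 were called against Blank (1 higher, 1 lower; edgeR quasi-likelihood test, adjusted p under 0.05 over all 13375 genes tested). With doxorubicin, 15 were called, of which 8 rose and 7 fell. The background differed as well: peroxide changed 1.43% of all genes tested (0.636% higher, 0.793% lower) and doxorubicin 21.7% (10.3% higher, 11.4% lower). The share for peroxide was unstable: 0.682% without Blank_1, 0.79% without H2O2_1, 0.0415% in a fit of these groups alone, and 3.83% without Blank_4 and B_I_3. For doxorubicin it was 13.6% without Dox_3. The 2 members called with peroxide are 5.88% of the 34, and the 15 called with doxorubicin are 44.1%. Among the 7626 genes with a mean of at least 10 CPM, which hold 32 of the members, the shares called were 2.24% and 32.6%, so abundant genes were called more often in general. The median log2 change of the members was 0.02 with peroxide and 0.10 with doxorubicin, against -0.02 and 0.08 for all genes. In fits on log2 FPKM the median of all genes for doxorubicin moved to 0.18 or 0.23, the calls over all genes went from 1372 higher and 1524 lower to 2625 and 1050 on log2(FPKM + 1), and the members then split into 13 higher and 6 lower. With DESeq2 size factors the split was 5 higher and 7 lower. The 2 comparisons share the Blank libraries, so their values are set side by side only.

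**Figure D1:**
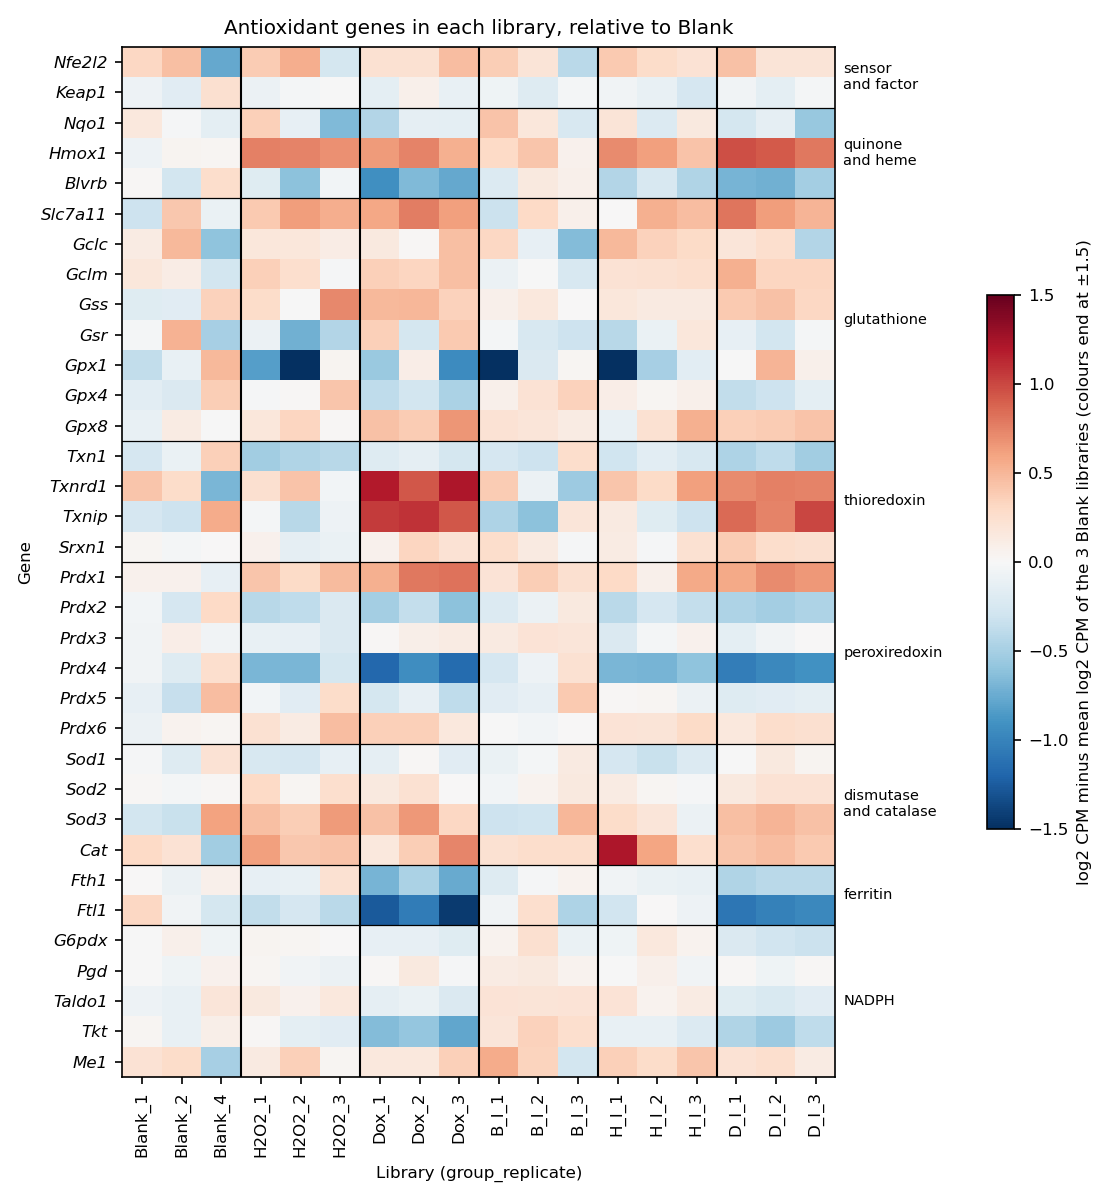
Level of each of the 34 genes (rows, grouped by role) in each of the 18 libraries (columns), as log2 CPM minus the mean log2 CPM of the 3 Blank libraries; red is higher, blue lower, and colours end at ±1.5. Txnrd1 and Txnip are red and Ftl1, Fth1, Prdx4 and Tkt are blue in the Dox and D_I columns, Hmox1 is red in the H2O2, Dox, H_I and D_I columns, and Blank_4 and B_I_3 differ from the other libraries of their groups in Nfe2l2, Txnrd1 and Gclc.

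The message for NRF2 itself was not called in either comparison. Nfe2l2 stood at 67.6, 74.3 and 32.1 CPM in Blank, at 71, 79.5 and 45.5 CPM in H2O2, and at 63.9, 63.8 and 74.8 CPM in Dox. The groups overlapped, and the low Blank value belonged to Blank_4. The log2 change was 0.17 (SE 0.24) with peroxide and 0.22 (SE 0.24) with doxorubicin, both uncalled. Without Blank_4 these became -0.10 and -0.10, so the sign rested on that library. Keap1, the inhibitor, stood at 108, 102 and 135 CPM in Blank, 108, 112 and 113 CPM in H2O2, and 103, 121 and 105 CPM in Dox, again overlapping. Its log2 changes were -0.05 (SE 0.11) with peroxide and -0.07 (SE 0.11) with doxorubicin. In the isoliensinine arms Nfe2l2 ran from 41.1 to 74.1 CPM and Keap1 from 95.7 to 112 CPM, and neither gene was called in any comparison.

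Heme oxygenase 1 (Hmox1), which breaks down heme to biliverdin, iron and carbon monoxide, rose with both agents. It stood at 126, 137 and 135 CPM in Blank, 224, 223 and 214 CPM in H2O2, and 206, 223 and 191 CPM in Dox. Every treated library lay above every Blank library, while H2O2 and Dox overlapped. The rise was 1.66-fold with peroxide (log2 0.73, SE 0.10, edgeR adjusted p = 0.000469) and 1.56-fold with doxorubicin (log2 0.64, SE 0.10, adjusted p = 0.000108). The direct difference between doxorubicin and peroxide was -0.09 on the log2 scale (95% interval -0.30 to 0.12) and was not called. Of the 34, Hmox1 was the only gene called higher with peroxide in the reported edgeR fit of all 18 libraries. Its call there was lost in a fit of the H2O2 and Blank libraries alone (adjusted p = 0.0763).

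Biliverdin reductase B (Blvrb), which reduces flavins and acts on a product of heme breakdown, moved the other way. Its levels were 95, 77.5 and 112.8 CPM in Blank, 82.7, 61.3 and 91.2 CPM in H2O2, and 49.8, 59.5 and 55 CPM in Dox. All Dox libraries lay below all others of these 3 groups, and Blank and H2O2 overlapped. Blvrb fell 1.74-fold with doxorubicin (log2 -0.80, SE 0.15, adjusted p = 0.000546). The quinone reductase Nqo1, a textbook NRF2 target, was not called: 20.9 to 25.7 CPM in Blank, 14.6 to 29.4 CPM in H2O2 and 17 to 20.9 CPM in Dox. Its log2 changes were -0.09 (SE 0.22) with peroxide and -0.24 (SE 0.22) with doxorubicin.

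**Figure D2:**
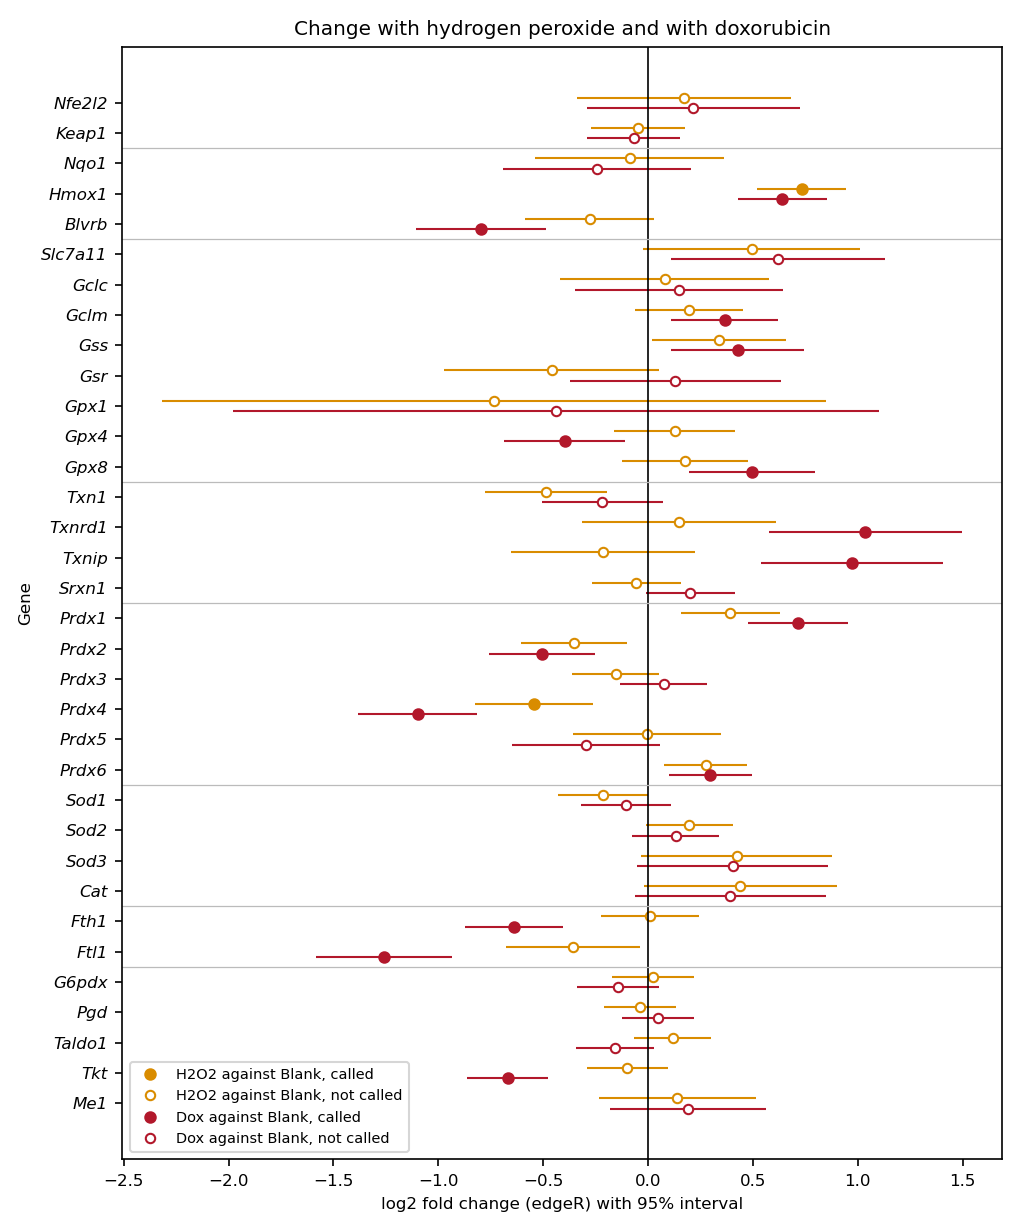
Log2 fold change of each of the 34 genes (rows, grouped by role) with hydrogen peroxide (orange) and with doxorubicin (red) against Blank, with 95% intervals from the edgeR fit; filled points were called at an adjusted p under 0.05. With peroxide the filled points are Hmox1 and Prdx4, and with doxorubicin there are 15, from Txnrd1 at 1.04 to Ftl1 at -1.26.

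Of the 8 glutathione genes, none was called with peroxide, while 3 rose and 1 fell with doxorubicin. Gclm, the regulatory subunit of the enzyme that makes the first bond of glutathione, stood at 62.5, 59.9 and 46 CPM in Blank, 71.2, 66.3 and 55.1 CPM in H2O2 and 71.5, 69.6 and 75.9 CPM in Dox. It was 1.29-fold higher with doxorubicin (log2 0.37, SE 0.12, adjusted p = 0.0374), and Dox and Blank did not overlap, while H2O2 overlapped both. Gss, which adds glycine in the last step, stood at 46.8, 47.4 and 67.7 CPM in Blank, 64.1, 52.9 and 87.8 CPM in H2O2, and 74.7, 75.1 and 67.7 CPM in Dox. Its rise was 1.34-fold (log2 0.43, SE 0.15, adjusted p = 0.0493), with the highest Blank library (67.698 CPM) level with the lowest Dox library. The table places Gss over Acss2 on the opposite strand and Gpx8 within Cdc20b on the opposite strand. These overlaps are of whole gene spans, and overlap of exons was not examined. The kit is not stated to keep strand, so how far reads of these pairs were mixed is not known.

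Gpx8, a peroxidase of the endoplasmic reticulum, stood at 29.1, 34.1 and 31.1 CPM in Blank, 35.4, 39.2 and 31.8 CPM in H2O2, and 42.4, 40.8 and 49.8 CPM in Dox, a rise of 1.41-fold with doxorubicin (log2 0.50, SE 0.14, adjusted p = 0.0162). Gpx4, which reduces lipid hydroperoxides and guards against ferroptosis, went down. Its levels were 554, 534 and 799 CPM in Blank, 610, 624 and 827 CPM in H2O2, and 476, 513 and 445 CPM in Dox. The fall was 1.32-fold (log2 -0.40, SE 0.14, adjusted p = 0.0434), with Dox below every Blank and every H2O2 library. Each of these 4 calls depended on single libraries. Without Blank_4 the change of Gclm shrank to 0.21 (adjusted p = 0.279) and that of Gpx4 to -0.22 (adjusted p = 0.203), so the size of both rested on that library. Without 1 Dox library both calls were lost with changes of like size: 0.33 to 0.40 for Gclm (adjusted p from 0.0542 to 0.134) and -0.45 to -0.34 for Gpx4 (adjusted p from 0.0544 to 0.171). Leaving out a single library also ended the call of Gss (without Blank_1, adjusted p = 0.178; without Blank_2, 0.16; without Dox_1, 0.125; without Dox_2, 0.113; without Dox_3, 0.0698), which was 0.59 without Blank_4 (adjusted p = 0.00403), and of Gpx8 (without Blank_1, adjusted p = 0.0664; without Dox_3, 0.101).

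The catalytic partner of Gclm did not pass the test. Gclc stood at 21 to 45.1 CPM in Blank, 34.6 to 36.1 CPM in H2O2 and 32.5 to 43.8 CPM in Dox, with log2 changes of 0.08 (SE 0.24) and 0.15 (SE 0.24). The cystine importer Slc7a11 was at 4.17 to 6.84 CPM in Blank, 6.77 to 8 CPM in H2O2 and 7.69 to 8.78 CPM in Dox, without a call. Glutathione reductase (Gsr) ran from 10.6 to 21.6 CPM in Blank, 9.05 to 14.1 CPM in H2O2 and 12.5 to 19.7 CPM in Dox, and Gpx1 did not pass 1.61 CPM in any library. None of these 4 was called in any of the comparisons made here, and of the alternatives 1 called Slc7a11 with doxorubicin (without Blank_2, log2 0.86, adjusted p = 0.0291). Without Blank_4 and B_I_3, Gss was called with peroxide too (log2 0.54, adjusted p = 0.0249).

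In the thioredoxin system 2 of 4 genes rose with doxorubicin and none was called with peroxide. Thioredoxin reductase 1 (Txnrd1), the flavoenzyme that uses NADPH to keep thioredoxin reduced, stood at 54.6, 49.5 and 25.5 CPM in Blank and at 48.4, 55.4 and 40 CPM in H2O2, which overlapped. In Dox it stood at 93.4, 78.1 and 95 CPM, above all libraries of the other 2 groups. The rise with doxorubicin was 2.05-fold (log2 1.04, SE 0.22, adjusted p = 0.00184), and with peroxide the change was 0.15 (SE 0.22), uncalled. Thioredoxin-interacting protein (Txnip), which binds and inhibits thioredoxin, rose beside the reductase. Its levels were 31.9, 30.7 and 56 CPM in Blank, 37.4, 28.6 and 36.2 CPM in H2O2, and 78.9, 80.7 and 72.6 CPM in Dox, where all libraries exceeded all others of these groups. The rise was 1.96-fold (log2 0.97, SE 0.21, adjusted p = 0.00189), against -0.21 (SE 0.21), uncalled, with peroxide.

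Blank_4 was the low library of Blank for Txnrd1 and the high one for Txnip, and both calls with doxorubicin held in all 16 alternative settings, those without Blank_4 included. In the table the span of Txnrd1 includes Eid3 on the same strand. Txn1, the thioredoxin itself, was at 239 to 362.7 CPM in Blank, 197 to 212 CPM in H2O2 and 237 to 260 CPM in Dox, and was not called. Every H2O2 library lay below every Blank library. The log2 change with peroxide was -0.49 (edgeR adjusted p = 0.0855), and -0.28 without Blank_4 (adjusted p = 0.246). On log2(FPKM + 1) it was called higher in Dox against H2O2 (log2 0.33, limma adjusted p = 0.0307). In D_I against B_I it was called lower with DESeq2 (log2 -0.43, adjusted p = 0.0297). Without Blank_4 and B_I_3 it was called lower in D_I against H_I (log2 -0.27, edgeR adjusted p = 0.0175). Sulfiredoxin (Srxn1), which repairs over-oxidised peroxiredoxins and is a classical NRF2 target, was at 107 to 111 CPM in Blank, 99.4 to 114 CPM in H2O2 and 114 to 136 CPM in Dox. Its log2 changes were -0.06 (SE 0.10) with peroxide and 0.20 (SE 0.10) with doxorubicin, neither called. On log2(FPKM + 1) the change with doxorubicin was 0.37 and passed (limma adjusted p = 0.0141).

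**Figure D3:**
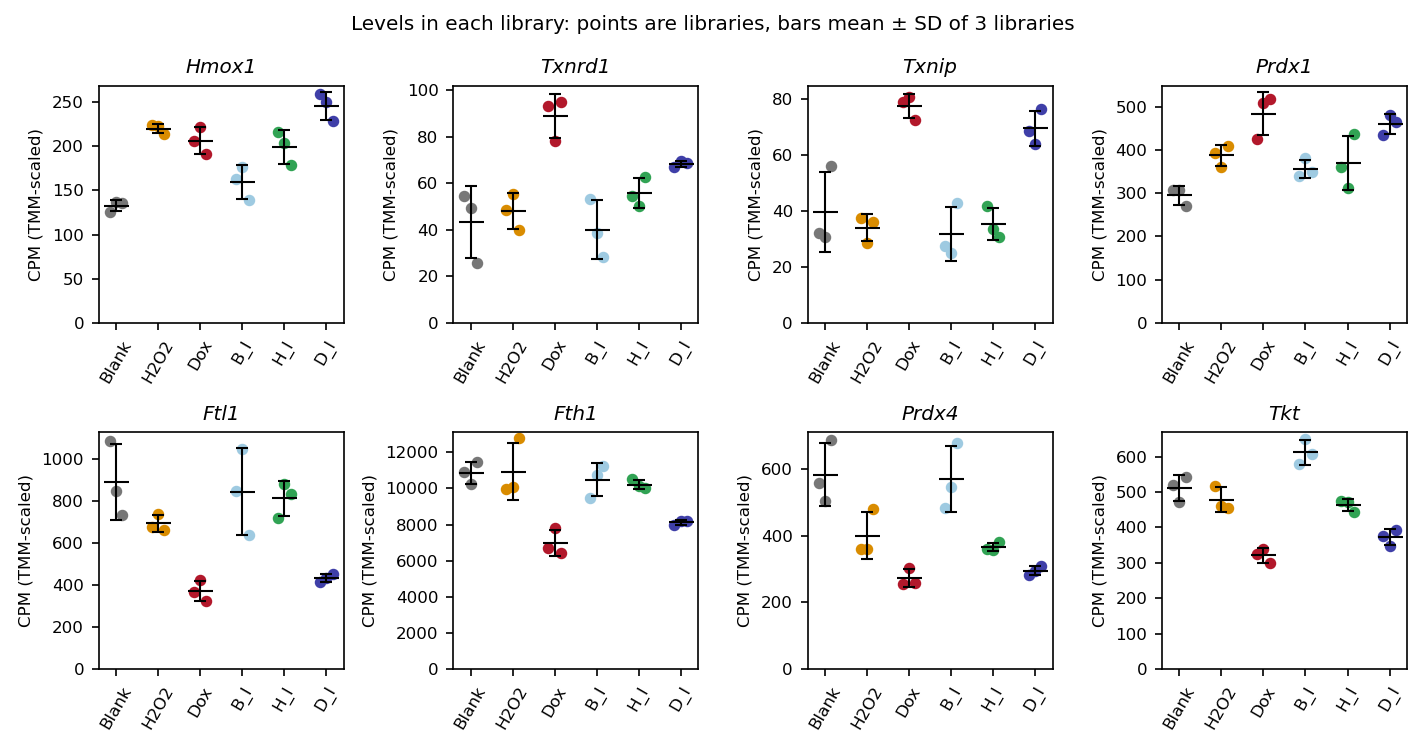
TMM-scaled CPM of 8 genes in each library; points are libraries, and black bars mark the mean ± SD of the 3 libraries of a group. Txnrd1 and Txnip are highest and Ftl1, Fth1, Prdx4 and Tkt lowest in Dox and D_I, while Hmox1 is above Blank (133 ± 6.07 CPM) in H2O2 (220 ± 5.5 CPM), Dox (207 ± 15.7 CPM) and D_I (246 ± 15.6 CPM).

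The 6 peroxiredoxins, which reduce peroxides through a reactive cysteine, did not move as a block. Prdx1, a cytosolic form, stood at 308, 308 and 269.7 CPM in Blank, 394, 360 and 409 CPM in H2O2, and 427, 510 and 518 CPM in Dox, so that the 3 groups did not overlap. It rose 1.64-fold with doxorubicin (log2 0.72, SE 0.11, adjusted p = 0.000107), while the 1.31-fold difference with peroxide (log2 0.39, SE 0.11) missed the threshold at an adjusted p of 0.0891. That difference passed with DESeq2 (adjusted p = 0.0229).

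Prdx4, the form of the endoplasmic reticulum, went the other way. It stood at 557, 503 and 686.7 CPM in Blank, 360, 359 and 480 CPM in H2O2, and 254, 303 and 259 CPM in Dox, and these groups did not overlap either. The fall was 1.46-fold with peroxide (log2 -0.54, SE 0.14, adjusted p = 0.0466) and 2.14-fold with doxorubicin (log2 -1.10, SE 0.14, adjusted p = 6.74e-06). The peroxide call was lost without Blank_1 (adjusted p = 0.0753), Blank_4 (0.098), H2O2_1 (0.168) or H2O2_2 (0.148). The doxorubicin call was kept in all 16 settings.

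Prdx2, a further cytosolic form, stood at 686, 597 and 867.8 CPM in Blank, 529, 545 and 609 CPM in H2O2, and 498, 555 and 462 CPM in Dox. It fell 1.42-fold with doxorubicin (log2 -0.50, SE 0.12, adjusted p = 0.0046). The ends of its span overlap Junb and Rnaseh2a on the opposite strand. Prdx6, which also acts on phospholipids, stood at 161, 178 and 174 CPM in Blank, 199, 186 and 235 CPM in H2O2, and 219, 219 and 190 CPM in Dox. It rose 1.23-fold with doxorubicin (log2 0.30, SE 0.10, adjusted p = 0.029), a call lost without Blank_1 (adjusted p = 0.107), Dox_1 (0.111) or Dox_2 (0.0925). With peroxide its change was of like size at 0.27, uncalled (edgeR adjusted p = 0.171). On log2(FPKM + 1) the change with peroxide was 0.37 and was called (limma adjusted p = 0.015). Mitochondrial Prdx3 (57.1 to 72 CPM over these 9 libraries) and Prdx5 (223 to 401.3 CPM) were not called in the reported fit. On log2(FPKM + 1) Prdx3 was called higher in Dox against Blank (log2 0.25, limma adjusted p = 0.0435) and Dox against H2O2 (log2 0.28, 0.0352). With DESeq2 it was called lower in D_I against B_I (log2 -0.29, adjusted p = 0.0172). Without Blank_4 and B_I_3, Prdx5 was called lower in Dox against H2O2 (log2 -0.33, edgeR adjusted p = 0.0139).

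The superoxide dismutases and catalase, which remove superoxide and hydrogen peroxide directly, gave no call in any comparison of the reported edgeR fit. Sod1, Sod2 and Sod3 were called in some alternatives. Cytosolic Sod1 lay between 403 and 557.7 CPM and mitochondrial Sod2 between 67.3 and 84.8 CPM over the Blank, H2O2 and Dox libraries. Sod2 passed with doxorubicin on log2(FPKM + 1) (log2 0.27, limma adjusted p = 0.0256). On that scale Sod1 was called higher in D_I against H_I (log2 0.32, limma adjusted p = 0.00391) and D_I against B_I (log2 0.22, 0.0176). The replicate block also called Sod1 in D_I against H_I (log2 0.32, edgeR adjusted p = 0.0213). Secreted Sod3 was at 161, 154 and 297 CPM in Blank, where the high value is again Blank_4, and at 252 to 303 CPM in H2O2 and 241 to 305 CPM in Dox. Its log2 changes were 0.42 with peroxide (edgeR adjusted p = 0.419) and 0.40 with doxorubicin (adjusted p = 0.211). Without Blank_4 they were 0.80 (adjusted p = 0.0255) and 0.75 (adjusted p = 0.00554), both past the threshold. With doxorubicin Sod3 also passed on log2(FPKM + 1) (limma adjusted p = 0.0104) and with the replicate block (adjusted p = 0.00942). Catalase was at 11.9 to 21.1 CPM in Blank, 22.7 to 26.3 CPM in H2O2 and 19.2 to 28.5 CPM in Dox. Its highest value of all, 39.6 CPM, was in H_I_1, the library that also had the highest sum over 12 liver markers (442.5 CPM, against 51.9 to 159.2 CPM in the other 17) and over 12 colon markers (801.6 CPM, against 49.2 to 309.4 CPM). All 12 genes of both lists had reads in H_I_1, as in most other libraries, and the part of such transcripts in its catalase level was not tested.

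Both ferritin subunits fell with doxorubicin and neither was called with peroxide. Fth1, the heavy chain with the ferroxidase site, stood at 10892, 10241 and 11468 CPM in Blank, 9978, 10053 and 12765 CPM in H2O2, and 6719, 7807 and 6423 CPM in Dox. The Dox libraries lay below all others of these groups, while Blank and H2O2 overlapped. The fall was 1.56-fold (log2 -0.64, SE 0.11, adjusted p = 0.000311), against 0.01 (SE 0.11), uncalled, with peroxide. Ftl1, the light chain that helps to form the iron core, stood at 1088, 850 and 732 CPM in Blank, 678, 739 and 664 CPM in H2O2, and 368, 423 and 324 CPM in Dox. It fell 2.39-fold (log2 -1.26, SE 0.16, adjusted p = 6.64e-06), the deepest fall of the 34, while with peroxide the change was -0.36 (SE 0.15), uncalled. Without Blank_4 and B_I_3 the change of Ftl1 with peroxide was -0.47 and was called (adjusted p = 0.0273).

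As both genes are very abundant, the fall was visible in the make-up of the libraries. Together the 2 subunits took 1.03 to 1.16% of all counts in Blank, 1.1 to 1.29% in H2O2, and 0.724 to 0.842% in Dox. Ferritin genes have processed copies in the genome: Ftl1-ps1 had at most 362 counts in a library. Ferritin output is known to be set largely by translation, which RNA levels do not show.

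Among the 5 genes of NADPH supply and the pentose phosphate pathway 1 was called with doxorubicin and none with peroxide. Transketolase (Tkt), of the non-oxidative pentose phosphate pathway, stood at 519, 473 and 542 CPM in Blank, 518, 460 and 454 CPM in H2O2, and 325, 340 and 298 CPM in Dox. It fell 1.59-fold with doxorubicin (log2 -0.67, SE 0.09, adjusted p = 2.24e-05), with all Dox libraries below all others of these groups, against -0.10 (SE 0.09), uncalled, with peroxide. Taldo1, which acts beside it, stood at 291, 282 and 347 CPM in Blank, 337, 319 and 342 CPM in H2O2, and 277, 285 and 262 CPM in Dox, and was not called against Blank. The dehydrogenases of the oxidative branch, G6pdx (163 to 194 CPM over the Blank, H2O2 and Dox libraries) and Pgd (398 to 466 CPM), and malic enzyme Me1 (50.2 to 90.7 CPM) were not called either. On log2(FPKM + 1) Pgd was called higher with doxorubicin (log2 0.22, limma adjusted p = 0.0278) and Taldo1 higher with peroxide (log2 0.24, 0.0425). G6pdx overlaps Ikbkg on the opposite strand.

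The classical NRF2 targets did not move together. Of the 16 listed above as such, with doxorubicin Txnrd1, Prdx1, Hmox1 and Gclm rose, Ftl1, Fth1 and Tkt fell, and the other 9 (Nqo1, Srxn1, Gclc, Gsr, Slc7a11, Me1, G6pdx, Pgd and Taldo1) were not called. With peroxide Hmox1 alone of these was called. As upstream sequence is available for most members, a window of 250 bases before the start of transcription was searched for the core of the antioxidant response element, TGACNNNGC, on both strands. RefSeq promoter entries (GRCm38.p6) matched 29 of the 34 genes by symbol. Sod3, Gsr, Gclc, Prdx6 and Hmox1 were not matched. The core was found in 6 of 38 windows (15.8%), against 10.2% of all 32851 windows of this length. The 6 stretches, with up to 20 bases either side and the core in capitals, are shown because 3 of these genes (Txnrd1, Prdx1 and Gclm) rose with doxorubicin and 3 (Nfe2l2, Sod1 and G6pdx) were not called with it. All are written 5′ to 3′ along the strand of the gene.
Txnrd1, chr10:82859094-82859142, plus strand: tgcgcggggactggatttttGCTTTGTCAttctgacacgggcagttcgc
Prdx1, chr4:116685446-116685494, plus strand: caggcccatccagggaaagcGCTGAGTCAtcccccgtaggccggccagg
Gclm, chr3:122245403-122245451, plus strand: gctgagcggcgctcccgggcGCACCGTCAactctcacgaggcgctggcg
Nfe2l2, chr2:75704875-75704913, minus strand: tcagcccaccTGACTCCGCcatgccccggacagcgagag
Sod1, chr16:90220686-90220734, plus strand: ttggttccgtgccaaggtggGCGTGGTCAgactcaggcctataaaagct
G6pdx, chrX:74428909-74428957, minus strand: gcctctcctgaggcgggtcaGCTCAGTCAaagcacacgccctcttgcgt
In 5 of the 6 the core reads on the strand opposite to the gene, and in Nfe2l2 on the gene's own strand. The Txnrd1 match lies in 1 of 3 windows listed for that gene. The Prdx1 match also overlaps TGANTCA, the letters of an AP-1 site, which 6.75% of all windows contain. A match describes letters and is not a site, and known enhancers of several of these genes lie farther away, outside the windows.

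The direct comparison of doxorubicin with peroxide called 9 of the 34 (26.5%), 2 higher and 7 lower, against 13.1% of all genes tested (6.73% higher, 6.33% lower) and 20.3% of the abundant genes. The median log2 difference of the members was 0.03, against 0.07 for all genes. Over all genes 900 were higher and 846 lower, which became 674 and 1036 with DESeq2 size factors. With these the members split as before, 2 higher and 7 lower, and on log2(FPKM + 1) 6 were higher and 7 lower. The higher genes were those of thioredoxin: Txnip 2.28-fold (log2 1.19, SE 0.21, adjusted p = 0.000707) and Txnrd1 1.85-fold (log2 0.89, SE 0.22, adjusted p = 0.0104). The lower genes were both ferritins, Ftl1 1.87-fold (log2 -0.90, SE 0.15, adjusted p = 0.000522) and Fth1 1.57-fold (log2 -0.65, SE 0.11, adjusted p = 0.000574), and Tkt 1.49-fold (log2 -0.57, SE 0.09, adjusted p = 0.000317). Prdx4 (log2 -0.56, SE 0.14), Gpx4 (-0.52, SE 0.14), Blvrb (-0.52, SE 0.15) and Taldo1 (-0.28, SE 0.09) were lower too. In all 9 genes the 3 Dox libraries and the 3 H2O2 libraries did not overlap.

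Txnip, Ftl1, Fth1 and Tkt kept this call in all 16 settings. The count fell to 4 without H2O2_3 and to 5 without Dox_3. Txnrd1 was lost without H2O2_3 (adjusted p = 0.0662), Prdx4 without H2O2_3 (0.0738), Dox_1 (0.0548) or Dox_3 (0.0554), and Gpx4 without H2O2_3 (0.114), Dox_1 (0.0572) or Dox_3 (0.0891). Blvrb was lost without H2O2_1 (adjusted p = 0.0836), H2O2_3 (0.141), Dox_1 (0.122) or Dox_3 (0.0871), and Taldo1 without any 1 of the 6 libraries (adjusted p from 0.0553 to 0.202). Of the genes that differed from Blank with doxorubicin, Hmox1, Prdx6, Prdx2, Gss and Gclm were not called between the agents, which does not show that the agents acted alike on them. Their intervals for doxorubicin against peroxide were -0.30 to 0.12, -0.18 to 0.22, -0.40 to 0.10, -0.23 to 0.40 and -0.08 to 0.43 on the log2 scale. Prdx1 (0.09 to 0.56) and Gpx8 (0.02 to 0.62) were not called either. On log2(FPKM + 1) Prdx1 was called higher with doxorubicin than with peroxide (log2 0.38, limma adjusted p = 0.0353). It was also called with the replicate block (log2 0.32, edgeR adjusted p = 0.0317), without Dox_1 (log2 0.41, 0.0463) and without Blank_4 and B_I_3 (log2 0.28, 0.0397). DESeq2 and the fits without any other 1 of the 6 libraries did not call it.

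**Figure D4:**
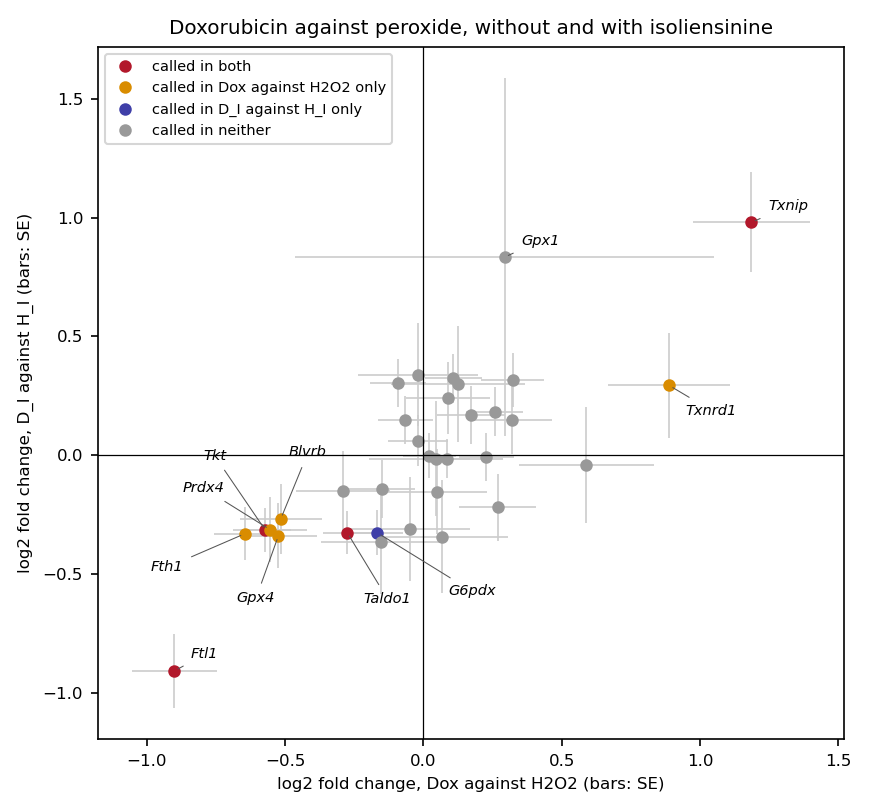
Log2 difference between doxorubicin and peroxide for each of the 34 genes, without isoliensinine (Dox against H2O2, horizontal) and with it (D_I against H_I, vertical); bars are standard errors and colours show where a gene was called. Txnip at the upper right and Ftl1 at the lower left were called in both, and Gpx1, with few reads, has the widest bars.

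The same contrast within the isoliensinine arms uses none of these 6 libraries. D_I against H_I called 5 of the 34 (14.7%), 1 higher and 4 lower, against 8.2% of all genes tested (4.73% higher, 3.47% lower) and 13.3% of the abundant ones. Both shares moved with the setting: a fit of the H_I and D_I libraries alone called 17 members and 25.5% of all genes, the replicate block 10 and 11.4%, the fit without Blank_4 and B_I_3 11 and 14.1%, and fits without 1 of the 6 libraries 2 to 3 members and 4.06 to 4.82% of all genes. Marker lists differed between these arms as well. The sum over 12 smooth muscle markers was 2967 to 3590 CPM in H_I and 1747 to 2006 CPM in D_I, that over fibroblast markers 6741 to 8331 and 4451 to 4796 CPM, that over colon markers 239.7 to 802 and 161 to 209 CPM, and that over liver markers 151 to 443 and 98.5 to 122 CPM. Their part in the contrast was not tested. Txnip stood at 41.6, 33.6 and 30.6 CPM in H_I and 68.5, 63.9 and 76.3 CPM in D_I, a rise of 1.97-fold (log2 0.98, SE 0.21, adjusted p = 0.00545). Ftl1 stood at 721, 882 and 834 CPM in H_I and 415, 434 and 450 CPM in D_I, a fall of 1.88-fold (log2 -0.91, SE 0.15, adjusted p = 0.000834). Both genes separated the arms completely and kept their calls in all 16 settings.

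Tkt was at 474, 473 and 444 CPM in H_I against 375, 349 and 393 CPM in D_I (log2 -0.32, SE 0.09, adjusted p = 0.0365). Taldo1 was at 352, 317 and 333 CPM against 269, 260 and 270 CPM (log2 -0.33, SE 0.09, adjusted p = 0.0254). G6pdx, the enzyme that opens the pentose phosphate pathway, was at 177 to 206 CPM against 148 to 159 CPM (log2 -0.33, SE 0.09, adjusted p = 0.0331). These 3 separated the arms in every library, while Pgd, of the same pathway, did not (407 to 444 CPM in H_I, 406 to 427 CPM in D_I; log2 -0.02, SE 0.08), and the calls were fragile. Tkt was lost without any 1 of the 6 libraries (adjusted p from 0.0621 to 0.196), Taldo1 without any but H_I_2 (0.058 to 0.118) and G6pdx without any but H_I_1 (0.0752 to 0.173), so that 2 to 3 members were called when 1 library was left out.

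All 9 genes called in Dox against H2O2 had the same sign in D_I against H_I, and 4 were called there too (Txnip, Ftl1, Tkt and Taldo1), which is 44.4% of the 9 and 80% of the 5. Over all genes, 95% of the 1746 called in the first had the same sign in the second and 38% were called there. Fth1 was at 10491, 10138 and 10008 CPM in H_I and 7972, 8172 and 8213 CPM in D_I, separate in all libraries but at an adjusted p of 0.0751. Its fall was called with DESeq2 (log2 -0.37, adjusted p = 0.0114) and on log2(FPKM + 1) (log2 -0.33, limma adjusted p = 0.0101). The replicate block called it as well (log2 -0.33, edgeR adjusted p = 0.0445), as did some other alternatives. DESeq2 size factors and the fits without 1 library did not. Txnrd1 was at 54.7, 50 and 62.8 CPM in H_I and 66.9, 69.6 and 68.7 CPM in D_I, also separate, with an adjusted p of 0.499.

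Against B_I, doxorubicin with isoliensinine called 14 members (41.2%; 5 higher, 9 lower), against 18.8% of all genes (9.41% higher, 9.41% lower) and 27.9% of the abundant ones. Of these 14, 12 had also been called in Dox against Blank with the same sign, which shares no library: Txnrd1, Txnip, Hmox1, Prdx1, Gclm, Prdx2, Prdx4, Ftl1, Fth1, Blvrb, Tkt and Gpx4. These 12 are 85.7% of the 14 and 80% of the 15, and over all genes the shares were 70.5% and 61.3%. Without Blank_4 and B_I_3, Sod3 was called higher (log2 0.74, adjusted p = 1.96e-05) and Nqo1 lower (log2 -0.66, adjusted p = 0.0292) in D_I against B_I, and Sod3 higher in H_I against B_I (log2 0.45, adjusted p = 0.0315). The count was 8 without D_I_2, and 7 of the 14 calls stayed whichever 1 library was left out. Without B_I_3 the calls of Txnrd1 (edgeR adjusted p = 0.113), Prdx1 (0.101), Fth1 (0.0542), Prdx2 (0.0517) and Gclm (0.05004) were lost. Txnrd1 was also lost without B_I_2 (adjusted p = 0.0838) or D_I_2 (0.0547). Leaving out other single libraries ended the calls of Gpx4 and G6pdx too. On log2(FPKM + 1), 11 of 18 called members were higher. Peroxide with isoliensinine, H_I against B_I, called Prdx4 and Tkt, both lower (5.88% of members, against 1.46% of all genes, 0.464% higher and 0.994% lower, and 2.18% of the abundant ones). Prdx4 stood at 484, 545 and 677 CPM in B_I and 360, 357 and 381 CPM in H_I (log2 -0.64, SE 0.14, adjusted p = 0.021). Tkt stood at 579, 650 and 606 CPM in B_I and 474, 473 and 444 CPM in H_I (log2 -0.40, SE 0.09, adjusted p = 0.0346). Without B_I_3 or any 1 H_I library neither was called (adjusted p from 0.0736 to 0.104 for Prdx4, and from 0.0899 to 0.151 for Tkt), and without B_I_2 Tkt was lost (0.175). Hmox1 was at 163, 177 and 139 CPM in B_I and 216, 203 and 178 CPM in H_I, which did not overlap, and was not called at an adjusted p of 0.116. It was called higher on log2(FPKM + 1) (log2 0.48, limma adjusted p = 0.0248) and with the replicate block (log2 0.32, edgeR adjusted p = 0.0325). DESeq2 and the fits without 1 library did not call it.

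No call was made for isoliensinine. B_I against Blank, H_I against H2O2 and D_I against Dox each called 0 of 34 members and 0% of all genes (edgeR). The number of members with an unadjusted p under 0.05 was 4 (Hmox1, Tkt, Taldo1 and Prdx1), 0, and 2 (Hmox1 and Tkt), beside 4.79%, 6.84% and 4.16% of all genes. DESeq2 also called 0 members in each, beside 1, 81 and 21 of all genes. A fit of the D_I and Dox libraries alone called 2 members and 263 of all genes (2.09%). The 95% intervals, not adjusted for the number of genes, had a median half-width of 0.29 on the log2 scale in each comparison. Changes well below that size were not detectable, and changes of about that size could also go uncalled after adjustment over all genes. Leaving out Gpx1, the largest estimated change was 0.31 for B_I against Blank, 0.36 for H_I against H2O2 and 0.38 for D_I against Dox. Hmox1 stood at 160 ± 19.1 CPM in B_I beside 133 ± 6.07 CPM in Blank, at 246 ± 15.6 CPM in D_I beside 207 ± 15.7 CPM in Dox and at 199 ± 19.1 CPM in H_I beside 220 ± 5.5 CPM in H2O2 (SD, n = 3). Tests of whether the isoliensinine effect differed between conditions called 0 members and 0% of all genes in each of 3 interaction contrasts, with unadjusted p under 0.05 in 2, 3 and 2 members.

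Several of the 34 went with the libraries that stood apart. Taking a ratio past 1.5 in both as the measure, Nfe2l2, Txnrd1, Gclc and Me1 were low and Sod3, Txnip and Gpx1 high in both Blank_4 and B_I_3 against the other 2 libraries of their group. These 7 are 20.6% of the members. Of all genes tested, 17.8% passed the same ratio in the same direction in both. Of the 7626 abundant genes, which hold 32 of the members but not Gpx1, 9.6% did so. Smooth muscle markers summed to 5681 CPM in Blank_4 against 1734 and 1809 CPM in Blank_1 and Blank_2, and to 4951 CPM in B_I_3 against 2048 and 2139 CPM. Ribosomal protein genes took 9.95% and 9.66% of counts in these 2 libraries and 7.63 to 8.45% in the other 4 of their groups. The part of either in the members' levels was not tested. Nfe2l2 stood at 32.1 CPM in Blank_4 against a mean of 71 CPM in Blank_1 and Blank_2, and at 41.1 against 66.3 CPM in B_I_3. Sod3 stood at 297 against 157.7 CPM and at 274 against 157.3 CPM. Txnip and Txnrd1, which rose together with doxorubicin, thus went in opposite directions in these 2 libraries.

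Genes that surround the 34 were read from 6 lists of 116 further genes, of which 108 passed the filter. With peroxide 4 were called (3.7%, against 1.43% of all genes), all higher: the small MAF partners of NRF2, Maff (2.74-fold, log2 1.46, adjusted p = 0.000677) and Mafk (log2 0.64, adjusted p = 0.0348), the target Osgin1 (2.05-fold, log2 1.03, adjusted p = 0.00784), and sestrin 2 (Sesn2, log2 0.50, adjusted p = 0.03), a stress-induced antioxidant protein. Maff was at 13.2 ± 0.895 CPM in Blank and 36.3 ± 16.1 CPM in H2O2 (SD, n = 3). The count was 1 without Blank_1 and 2 without Blank_2 or H2O2_3, and 7 without Blank_4. Mafk was lost without Blank_1 (adjusted p = 0.0634), Blank_2 (0.118) or H2O2_3 (0.137), Osgin1 without Blank_1 (0.0534), and Sesn2 without Blank_1 (0.0854), Blank_2 (0.12), H2O2_1 (0.143) or H2O2_3 (0.0614). A fit of the H2O2 and Blank libraries alone called 0 of them.

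With doxorubicin 33 of the 108 were called, 15 higher and 18 lower. This is 30.6%, against 21.7% of all genes and 32.6% of abundant ones, and 20 of the 33 stayed called whichever 1 library was left out. Of 13 NRF2 partners and regulators, 3 (23.1%) rose and none fell: Mafk (log2 1.10, adjusted p = 2.05e-05), Maff (log2 1.10, adjusted p = 0.00071) and Nfe2l1, an NRF2 relative that controls proteasome genes (log2 0.34, adjusted p = 0.0152; lost without Blank_1, 0.0642, Blank_4, 0.0774, or Dox_3, 0.0821). Of 27 other NRF2 targets tested, 6 rose and 6 fell (44.4%). The aldose reductase gene Akr1b3 rose (log2 0.89, adjusted p = 0.00866), and Mt1, the metal-binding metallothionein 1, fell 4.76-fold from 1056 ± 324 to 222 ± 22.7 CPM (log2 -2.25, adjusted p = 2.48e-07). The glutathione and thioredoxin systems had 3 higher and 5 lower of 29 (27.6%), among them Oplah, which recycles oxoproline to glutamate (log2 -1.05, adjusted p = 2.09e-06), and Park7, the redox sensor DJ-1 (log2 -0.74, adjusted p = 8.61e-05). None of 11 further pentose phosphate and NADPH genes rose and 3 fell (27.3%; Me3, Pgls and Idh2). Of 13 oxidant sources 2 rose (15.4%; Duox1 and Por). Of 6 fits that each left out 1 library, Me3 was called in 0 and Duox1 and Por in 2 each, while Pgls and Idh2 were called in 6.

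Iron handling, which ferritin is part of, had 1 higher and 4 lower of 15 (33.3%) with doxorubicin. Ncoa4, the receptor that takes ferritin to the lysosome, was at 9.91 ± 2.53 CPM in Blank, 9.57 ± 2.38 CPM in H2O2 and 19 ± 3.8 CPM in Dox, a rise over Blank of log2 0.94 (adjusted p = 0.0186). Its call was lost without Blank_4 (adjusted p = 0.0939) or Dox_3 (0.108). The ferritin genes fell in the same libraries. The iron exporter Slc40a1 (ferroportin) fell from 18.5 ± 2.98 to 8.99 ± 2 CPM (log2 -1.04, adjusted p = 0.00683), and the iron reductase Steap3 from 81.6 ± 23 to 44 ± 3.52 CPM (log2 -0.89, adjusted p = 0.00123). Pcbp2, an iron chaperone that also binds RNA, fell as well (log2 -0.66, adjusted p = 0.000438). With peroxide none of the 15 was called.

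Between the agents, 19 of the 108 were called in Dox against H2O2, 7 higher and 12 lower. This is 17.6%, against 13.1% of all genes and 20.3% of abundant ones, and 10 of the 19 stayed called whichever 1 library was left out. Mt1 (log2 -2.03, adjusted p = 4.03e-06), Oplah (log2 -0.85, adjusted p = 7.88e-05) and Steap3 (log2 -0.89, adjusted p = 0.0023) were lower with doxorubicin. Ncoa4 was higher (log2 0.99, adjusted p = 0.0224), a call lost without H2O2_1 (adjusted p = 0.0726), H2O2_3 (0.102) or Dox_3 (0.131). The count was 10 without Dox_3. Maff and Osgin1 were not called between the agents, at log2 -0.36 and -0.32.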

How the data were processed

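Polyadenylated RNA was sequenced, per the labels' protocols. The tools fastp 0.22.0, HISAT2 2.1.0 and HTSeq 0.9.1 are named per the submitters' processing notes. Genome build and strandedness: not given in the sources used here. The deposited table holds raw read counts per gene and library and FPKM values made by the authors, which equalled count over gene length and column total in 100% of values (relative tolerance 1e-06).

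The count tests used edgeR 4.0.16 under R 4.3.3, with its expression filter (13375 genes kept), TMM scaling and a robust quasi-likelihood fit of the 6 group means over all 18 libraries. Calls were made at a Benjamini-Hochberg adjusted p under 0.05 over all genes tested. SE is the log2 change over the square root of the F statistic. Levels are TMM-scaled CPM computed from the counts. Values per library were given for Nfe2l2, Keap1 and the 16 called members with the smallest adjusted p in Dox against H2O2, Dox against Blank or H2O2 against Blank, and pathway genes were named from the largest called changes of each list. The pipeline was tested on simulated data. Chi-square per degree of freedom between replicates was at least 5.69, so no library repeated another of its group. The p-values judge changes against the spread between these libraries. The chi-square cannot show whether the replicates were separate cultures, for which only the design text's mention of biological replicates is at hand.

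Alternatives were DESeq2 1.42.0, its size factors, other filters, limma 3.58.1 on log2(FPKM + 1) and log2(FPKM + 0.1), a replicate block, only the groups compared, and leaving out libraries. The labels give no batch. Members, lists and alternatives were chosen with earlier results of these data known. Nnt, in 2 rows of the table, was left out of the lists.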

Additional observations from a re-analysis of the deposited data

How the results depend on the processing

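Of the 47 calls made on members in the 6 comparisons of treatments, 47 kept their sign and 23 stayed called under every alternative tried. Leaving out each library in turn gave 1 to 2 members for H2O2 against Blank, 11 to 15 for Dox against Blank, 4 to 8 for Dox against H2O2, 2 to 3 for D_I against H_I, 0 to 2 for H_I against B_I and 8 to 14 for D_I against B_I. For H2O2 against Blank the count was 1 with DESeq2 size factors or the filter of 5 CPM in 3 libraries, 5 with limma on log2(FPKM + 1) or log2(FPKM + 0.1), 0 with only the groups compared, 5 without Blank_4 and B_I_3, and 5 without these and H2O2_3 and H_I_1. The share of all genes called moved too, from 1.43% to 1.11%, 2.14%, 5.16%, 5.28%, 0.0415%, 3.83% and 5.12% in that order. For D_I against H_I it was 9 and 8 on the 2 log2 FPKM scales, 17 with only the groups compared, 11 without the 2 libraries and 12 without the 4, beside 15.7%, 15%, 25.5%, 14.1% and 16.9% of all genes in place of 8.2%. For H_I against B_I it was 1 with DESeq2 size factors, 1 without a filter and 0 with only the groups compared. D_I against Dox gave 2 with only the groups compared, and the interactions of isoliensinine with H2O2 against Blank and with Dox against H2O2 gave 1 each without the 4 libraries. The cause of these shifts was not tested.

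For the other pathway genes, whose alternatives were added after seeing the data, H2O2 against Blank gave 9 with DESeq2, 8 with the filter of 5 CPM, 10 on both FPKM scales, 0 with only the groups compared, 10 without the 2 libraries, 12 without the 4 and 1 to 7 leaving out 1 library. Dox against H2O2 gave 34 without the 4 and 10 to 18 leaving out 1 library.

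Replicate numbers gave no consistent pairing of the libraries. In 6 comparisons with 3 shared numbers the correlations of same-numbered libraries ran from -0.12 to 0.19, in 0 of them was every pair over 0.1, and in 1 did every library correlate best with its own number. With 2 shared numbers, both went best with their own in H2O2 against Blank (0.04 to 0.12) and B_I against Blank (0.07 to 0.28). In Dox against Blank 1 of 2 did (-0.19 to 0.14). With the replicate block D_I against H_I called 10 members in place of 5, and the other counts of members stayed within 1.5 times. Of all genes, the block called 4.61% in place of 1.46% in H_I against B_I and 17.3% in place of 13.1% in Dox against H2O2. In Dox against Blank it called 18.2% in place of 21.7%.

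Signs of log2 changes turned, among the values named here, in uncalled ones only, and the cause was not tested. With peroxide Nfe2l2 was -0.10 without the 2 libraries and -0.10 to 0.39 leaving out 1. Keap1 was 0.0733 and 0.0762 on the FPKM scales, 0.0839 with the replicate block, 0.0942 without the 2 libraries, 0.0846 without the 4 and -0.13 to 0.0894 leaving out 1. Txnrd1 was -0.0813 with the block, -0.10 without the 2 and -0.11 to 0.35 leaving out 1. Txnip was 0.0677 with the block, 0.13 without the 2, 0.0921 without the 4 and -0.37 to 0.13 leaving out 1. Srxn1 was 0.0557 and 0.057 on the FPKM scales. Tkt was 0.0168 and 0.0169 on those scales and 0.000504 without the 4. Leaving out 1 library gave -0.0287 to 0.34 for Gpx4 and -0.12 to 0.0675 for Fth1. With doxorubicin Nfe2l2 was -0.10 without the 2, -0.0828 without the 4 and -0.10 to 0.44 leaving out 1. Keap1 was 0.11 and 0.12 on the FPKM scales, 0.0646 with the block and 0.0514 without the 4. Gclc was -0.13 without the 2, -0.11 without the 4 and -0.13 to 0.42 leaving out 1. Nqo1 in Dox against H2O2 ran from -0.37 to 0.13 leaving out 1. Depth limits Gpx1, with 2 counts in its lowest library.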
